A study of Homo sapiens with 1536 samples.

Results

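SKBR3 was the only HER2+ line in a pool of 5 breast cancer cell lines that shared every well of a compound screen. Its response to each compound was compared with the mean response of the other 4 lines, ZR-75-1 (ER+) and BT-20, HCC-38 and MDA-MB-231 (triple-negative, that is without ER, PR or amplified HER2). Members were the SKBR3 values in all but 160 of the 1536 wells, which held all but 8 of the 180 compounds at 4 doses in 2 replicates. The 160 other wells were 96 DMSO wells and 64 wells of the 8 compounds left out, of which 6 had no deposited relative cell numbers and the others were Ruxolitinib and STF083010, which the study set aside for very high AUCs that it put down to a likely fault of their shared well position. Per well, SKBR3 was read as the mean over 10 of its 12 sgRNA populations. The others, sgHSF1 and sgKEAP1, were left out in all lines because the study set them aside in ZR-75-1. Of the 10, only sgNT carried non-targeting guides. The rest carried a guide to knock out ATF3, ATF4, ATF6, ATG7, ERN1, HSF2, NFE2L2, SLC35F2 or XBP1. In every line a value is thus an average over mostly knockout cells.

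The screen used QMAP-Seq, which counts barcoded cells by sequencing. The cells were thawed and grown with 100 ng/mL doxycycline for 7 days to switch on Cas9, then received DMSO or 1 compound for 72 h, so that treated and control cells alike carried Cas9 and an sgRNA. Doses rose in 10-fold steps to a highest dose of 10 µM for most compounds and 1 µM for 12 of those compared, and 96 wells received DMSO. A relative cell number is the number of cells of a line and sgRNA in a compound well, as a percentage of the median DMSO well. All 5 lines grew together in a common medium, so a value describes SKBR3 among other lines and not SKBR3 alone. The lines were populations sorted for a medium level of the GFP expressed with Cas9, and a lower relative cell number does not separate cell death from slower growth. The lines also grow at different rates. In the study's co-culture experiment SKBR3 was the most depleted line and MDA-MB-231 the most enriched. Growth rate was not adjusted for here, so its part in the differences between lines was not tested.

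SKBR3 cells carry many copies of ERBB2, the gene of the receptor tyrosine kinase HER2. HER2 has no known ligand of its own, pairs with EGFR or HER3, and signals through the PI3K-AKT-mTOR and RAS-RAF-MEK pathways. HER2 is also a client of the chaperone HSP90, and antibodies and kinase inhibitors against it are used to treat HER2+ breast cancer. No RNA or protein was measured in these wells, so no marker of the line could be read. The line was told apart by an 8 nt barcode on the guide vector, and the compounds that block HER2 were the only functional check of the label.

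The barcodes are shown because every SKBR3 value below rests on telling them apart, with up to 1 mismatch allowed in the read, and are printed in lower case throughout:
SKBR3: cggtgacc
ZR-75-1: atcactgg
HCC-38: tacagagg
MDA-MB-231: taacagtt
BT-20: attgtcaa
The SKBR3 barcode differed from that of ZR-75-1, MDA-MB-231 and BT-20 at all 8 positions, and from that of HCC-38 at 6 positions. In the DMSO wells SKBR3 made up 16.2% ± 1.12 of the reads (SD, n = 96). It gave 1892 to 308914 reads per compound well, with a median of 76594, and 23869 to 146630 reads per DMSO well. The DMSO wells give the spread of the comparison without a compound. SKBR3 minus the mean of the other lines was −0.230 ± 8.17 percentage points per well (SD, n = 96). The means of the 6 DMSO wells of a plate ran from −5.89 to 4.47. Each line and sgRNA was scaled to its own median over these same wells. A mean near 0 is therefore set by the scaling, and only the spread between wells and plates is informative.

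Dose response was summed as an area under the curve (AUC), the relative cell numbers at the 4 doses added up with the lowest and the highest dose at a weight of 0.5, so that cells unaffected at every dose give 300. SKBR3 had a lower AUC than the other lines for 24 compounds (14% of those tested) and a higher AUC for 4 (2.33%), by limma with a Benjamini-Hochberg adjusted p under 0.05. Lines of 1 replicate share their wells, and with the replicate as a block 54 compounds were lower (31.4%) and 9 higher (5.23%), among them all 24 and all 4 of the first fit. The difference had the same sign in both replicates for all 28 called compounds. The calls rest on these same 2 replicates, so this is not separate support for them. Most of all compounds tested also had the same sign in both. Over all compounds the median difference was −9.66, and 44 differences lay above 0 and the rest below.

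The shift was also present where no line responded strongly. Among the 81 compounds that left an AUC of 250 or more in every line, the median difference was −8.03, and 1 of them, Tacrolimus, was called lower. Among the other 91 compounds the median was −11.4, with 23 called lower and 4 higher. DMSO wells summed with the same weights gave 0.335 on the plates of 1 compound set and −1.95 on those of the other. Each line was scaled to its own median over all DMSO wells, so these sums lie near 0 by construction. They cannot show where the shift comes from. After each line and replicate was centred on its own median compound, 18 compounds were lower and 8 higher, and the 18 were all among the 24. The call was lost by Bortezomib, Clofarabine, Gemcitabine, Tacrolimus, Trifluoperazine and TubastatinA. The cause of the shift was not tested.

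**Figure D1:**
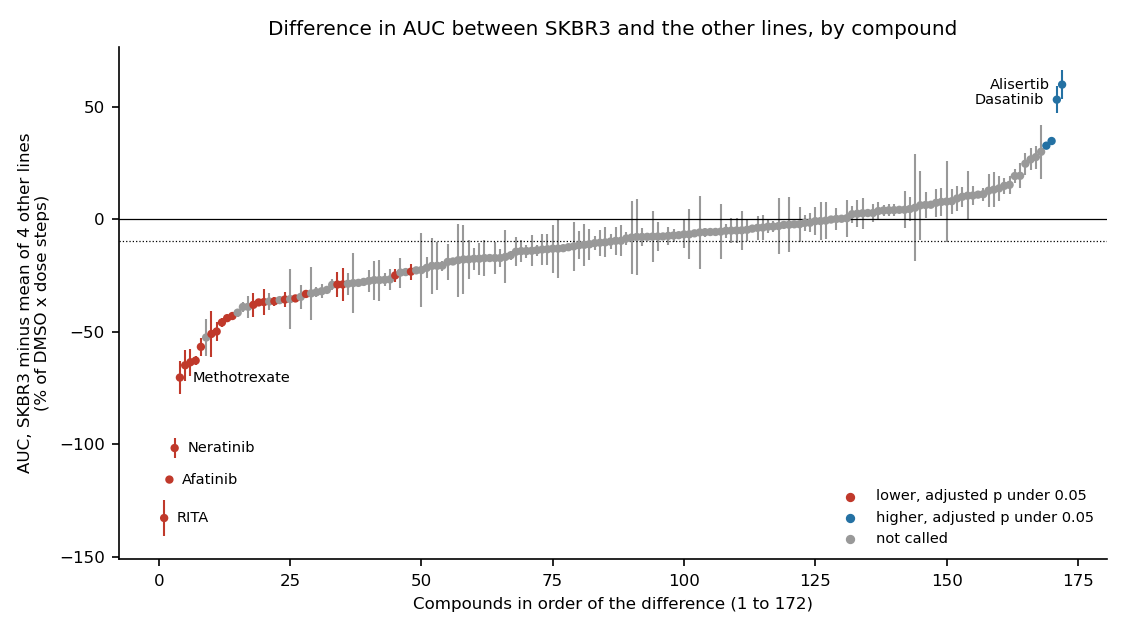
Difference in AUC between SKBR3 and the mean of the 4 other lines (y axis, percent of DMSO times dose steps) for all compounds tested in order of the difference (x axis). Points are means and vertical lines join the 2 replicates, the solid line marks 0 and the dotted line the median of −9.66, with RITA (−132.8), Afatinib and Neratinib standing apart at the low end and Alisertib (60.0) and Dasatinib at the high end. Red points were called lower, blue points higher.

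By size alone, without a test, 44 compounds had a difference under −25 (25.6%), of which 22 were not called, and 7 had one over 25 (4.07%). SKBR3 had the lowest mean AUC of the 5 lines for 55 compounds and the highest for 12. ZR-75-1 was lowest for 44, MDA-MB-231 for 41, HCC-38 for 28 and BT-20 for 4, and BT-20 was highest for 60. The median AUC was 259.9 in SKBR3, 255.7 in ZR-75-1 and 263.1 to 275.9 in the other lines. Against single lines the median difference was −6.61 for ZR-75-1, −9.75 for HCC-38, −4.28 for MDA-MB-231 and −19.7 for BT-20. Both SKBR3 replicates lay below all 8 values of the other lines for 21 compounds (12.2%) and above all 8 for 4 (2.33%).

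Kinase inhibitors of the ERBB family stood at the low end. Of the 6 tested, 5 were called lower in SKBR3 and all 6 under the replicate block, against 14% and 31.4% of all compounds. SKBR3 had the lowest mean AUC of the 5 lines for each of them. The class median was −56.8, against −9.66 over all compounds. These are EGFR and HER2 blockers: Afatinib, Canertinib and Neratinib bind the kinase covalently through an acrylamide-type group, whereas Lapatinib, Gefitinib and Erlotinib bind reversibly. Gefitinib and Erlotinib are used as EGFR inhibitors, and the other compounds block HER2 as well.

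Afatinib gave SKBR3 AUCs of 102.6 and 114.6, which were −114.4 and −116.9 from the mean of the other lines in the same replicate. Every other line stood above 200, from 214.9 in ZR-75-1 to 237.3 in HCC-38. The difference was −115.7 (standard error 9.89, limma adjusted p = 5.38e-05). At 100 nM SKBR3 was at 35.2% and 35.9% of DMSO and the other lines at 83.1% and 90.6%. At 10000 nM all lines had fallen, with SKBR3 at 13.9% and 9.25% and the others at 18.6% and 16%, and the difference of −5.72 points did not pass (limma adjusted p = 0.167).

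Neratinib gave 160.2 and 146.5 in SKBR3 and 257.3 and 252.8 in the others, a difference of −101.7 (standard error 8.07, limma adjusted p = 4.28e-05). The widest gap was at 1000 nM, where SKBR3 was at 29% and 23.2% and the others at 89.4% and 86.9%. At 10000 nM the other lines were still at 53.5% and 50.6% with Neratinib, and SKBR3 at 20.7% and 20.3%. None of the other lines fell below 50% in both replicates at any dose of Neratinib.

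Lapatinib gave 187.7 and 182.7 in SKBR3 and 248.4 and 247.6 in the others, a difference of −62.8 (standard error 6.77, limma adjusted p = 0.000190). SKBR3 fell to 50.9% and 50.2% at 1000 nM and to 19.9% and 15% at 10000 nM. At 10 and 100 nM the lines did not part beyond their spread, with differences of −2.95 and −5.27 points (limma adjusted p = 0.997 and 0.787).

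With Canertinib the AUCs were 168.4 and 168.9 in SKBR3 and 229.4 and 209.7 in the others (difference −50.9, standard error 9.78, limma adjusted p = 0.00638). As with Afatinib, the gap was smaller at the top dose, going from −35.6 points at 1000 nM to −0.478 at 10000 nM. Gefitinib gave 222.6 and 215.3 in SKBR3 and 276.8 and 260.7 in the others (difference −49.8, standard error 10.4, limma adjusted p = 0.00835). Here the gap opened with dose, and at 10000 nM SKBR3 was at 31.1% and 33% against 75.9% and 74.3%. Against ZR-75-1 alone, whose Gefitinib AUC was 229.5, the difference of −10.5 did not pass (limma adjusted p = 0.665), and against BT-20 alone it was −37.4 (limma adjusted p = 0.0702, blocked 0.0140).

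Erlotinib gave 261.5 and 253.3 in SKBR3 and 294.9 and 277.1 in the others. The difference of −28.6 did not pass without the block (standard error 9.18, limma adjusted p = 0.0596) and passed with it (limma adjusted p = 0.00328). Most of it lay at 10000 nM, where SKBR3 was at 39% and 37.3% and the others at 86.2% and 77.5%. The change of the difference from the lowest to the highest dose was itself called, at −50.1 points for Erlotinib (limma adjusted p = 0.00429) and −39.7 for Gefitinib (limma adjusted p = 0.00897).

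**Figure D2:**
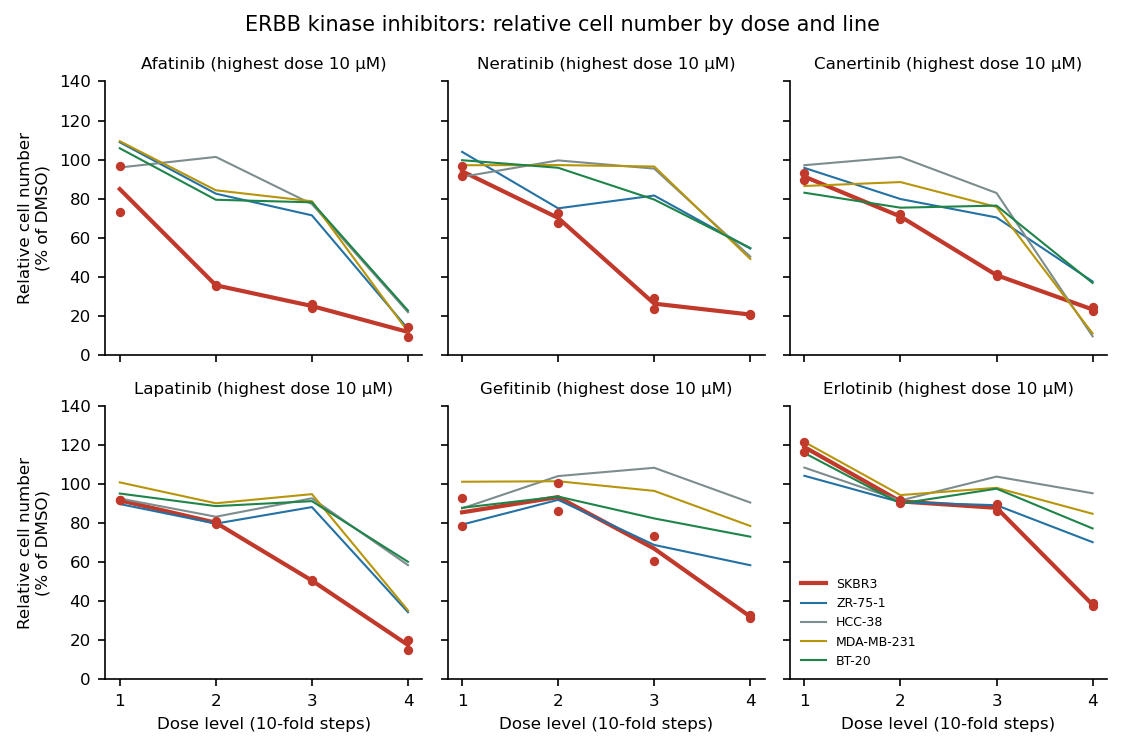
Relative cell number (y axis, percent of DMSO) at 4 dose levels in 10-fold steps (x axis) for 6 ERBB inhibitors, with lines for the mean of each cell line and points for the 2 SKBR3 replicates. SKBR3 falls at a lower dose than the other lines with Afatinib, Neratinib and Canertinib, and only at the highest dose with Erlotinib.

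All 6 ERBB inhibitors were given at the same 4 doses, so their SKBR3 differences were set against each other. With the pairs below, 20 pairs were compared by limma and adjusted over the 20, and 11 differed (55% of the pairs). These tests take 1 spread, pooled over the replicate pairs of all compounds, so that each pair has a standard error of 10.03, whereas the standard errors of single compounds in the main test ran from 6.18 to 28.3. Their p-values therefore do not rest on the wells of the pair alone. The difference of Afatinib minus that of Lapatinib was −52.9 (95% interval −72.7 to −33.1, adjusted p = 1.46e-06), and Afatinib was also lower than Canertinib (−64.8), Gefitinib (−65.9) and Erlotinib (−87.1). Neratinib was lower than Lapatinib by 38.9 (95% interval 19.1 to 58.7, adjusted p = 3.64e-04), than Canertinib by 50.8, than Gefitinib by 51.8 and than Erlotinib by 73.1. Afatinib and Neratinib were not told apart (−14, 95% interval −33.8 to 5.75, adjusted p = 0.218).

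Covalent and reversible compounds did not fall into separate ranges. Canertinib, which is covalent, was not told apart from the reversible Lapatinib (11.9, 95% interval −7.92 to 31.6, adjusted p = 0.280) or from Gefitinib (−1.08, 95% interval −20.9 to 18.7, adjusted p = 0.962). Gefitinib and Lapatinib were not told apart either (12.9, 95% interval −6.84 to 32.7, adjusted p = 0.248). Erlotinib differed from Lapatinib by 34.2 (adjusted p = 0.00178) and, near the threshold, from Canertinib (adjusted p = 0.0495). Erlotinib and Gefitinib, both reversible, differed by 21.2 (95% interval 1.46 to 41), which missed the threshold without the block (adjusted p = 0.0591) and passed it with the block (adjusted p = 0.0434). The labels name no plate for compound wells, so here and below their plates are inferred from the order of the samples. By that order Afatinib, Canertinib and Neratinib were on other plates than Lapatinib, Gefitinib and Erlotinib. Plate and compound therefore cannot be told apart in the pairs that cross those sets.

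Downstream of HER2, AZD5363 (capivasertib), which binds the catalytic pocket of AKT, left the other lines at AUCs of 267.1 and 262.3, with SKBR3 at −58.1 and −71.6 from them. The difference was −64.8 (standard error 7.77, limma adjusted p = 3.84e-04), and at 10000 nM SKBR3 was at 21.8% and 22.2% of DMSO against 66.5% and 60.3%. The other AKT inhibitor, AT7867, gave 217.01 and 215.6 in SKBR3 and 210.3 and 214.2 in the others, a difference of 4.08 (limma adjusted p = 0.816). AT7867 also inhibits other kinases of the AGC family. At its highest dose alone SKBR3 was lower, at 14% and 11.4% against 26.8% and 26% (limma adjusted p = 0.00305).

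Of the 9 PI3K inhibitors none was called by AUC without the block, and the class median was −17.8. With the block 4 were called lower by AUC, where 31.4% of all compounds were. At single doses without the block, GDC0941 was called lower at the third dose, as were 14% of all compounds. AZD8186 and ZSTK474 were called lower at the highest dose, as were 20.3%. GDC0941 (pictilisib), a pan-class I inhibitor, had the widest gap, with 179.2 and 202.3 in SKBR3 and 215.8 and 243.5 in the others (difference −38.9, limma adjusted p = 0.0650, blocked 0.00101). Replicate 2 was higher than replicate 1 in SKBR3 and in the other lines alike, and the gap was similar in both. ZSTK474, another pan-class I inhibitor, differed by −34.4 (limma adjusted p = 0.0895, blocked 0.00809) and AZD8186, which targets PI3K beta and delta, by −31.3 (limma adjusted p = 0.0859, blocked 0.00967). IC87114, a PI3K delta inhibitor, differed by −20.5 with a standard error of 28.3 (limma adjusted p = 0.682, blocked 0.0446). The differences were −17.8 for PIK93 (−33.2 and −2.32 in the replicates), −13.9 for PI103, −9.49 for CAL101 and −2.41 for GSK1059615, and 10.7 for GSK2636771, a PI3K beta inhibitor, and none of these passed in either fit.

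Of the 4 mTOR inhibitors none was called by AUC without the block, and the class median was −16.3. OSI027, which blocks both mTOR complexes at the kinase site, gave 205.4 and 236.97 in SKBR3 and 248.6 and 276.6 in the others (difference −41.4, limma adjusted p = 0.0788, blocked 0.00381). At the third and the highest dose alone OSI027 was called lower without the block as well, as were 14% and 20.3% of all compounds. KU0063794, also a kinase-site inhibitor, differed by −5.82 and −39.1 in the replicates (mean −22.5, limma adjusted p = 0.161) and ETP46464, which hits ATR as well, by −10.2 (limma adjusted p = 0.491). Everolimus, a rapamycin analog that acts on mTOR complex 1 through FKBP12, differed by 2.89 (95% interval −16.3 to 22.1, limma adjusted p = 0.837). With Everolimus SKBR3 was already at 74% and 63.4% at the lowest dose, 1 nM, and at 68.5% and 70.2% at the highest, 1000 nM.

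None of the 3 inhibitors of the chaperones was called by AUC in either fit. Ganetespib, an HSP90 inhibitor, gave 189.9 and 174.4 in SKBR3 and 181.1 and 182.1 in the others (difference 0.553, 95% interval −14.9 to 16.1, limma adjusted p = 0.966). NVPAUY922 (luminespib), also against HSP90, differed by −2.14 (95% interval −26.2 to 22, limma adjusted p = 0.897). At 100 nM SKBR3 was at 33% and 25.9% with Ganetespib and at 34% and 31.4% with NVPAUY922, and the other lines were at 26.7% and 24.4% and at 29.6% and 30.1%. VER155008, an HSP70 inhibitor, differed by 6.46 (limma adjusted p = 0.682).

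Compounds that stop mitosis were mostly lower in SKBR3 as well. Of 9, 7 were lower in SKBR3 and 1 was higher, against 14% and 2.33% of all compounds, and the median was −36.9 against −9.66 over all compounds. Rigosertib, described as a microtubule-destabilising agent and as a kinase inhibitor, gave 79.8 and 73.6 in SKBR3 and 137.3 and 143.1 in the others (difference −63.5, standard error 6.59, limma adjusted p = 1.71e-04). Its steep fall came between 10 and 100 nM, where SKBR3 went from 101.6% and 82.4% to 12.6% and 14.8%, while the others were at 50.7% and 56%.

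Vincristine, which blocks tubulin polymerisation, left a lower floor in SKBR3. Already at 10 nM SKBR3 was at 9.24% and 10.5% and the others at 30.2% and 29.8%, and at 10000 nM they were at 10.7% and 6.60% and at 23.3% and 21.7%. The AUC difference was −43.9 (standard error 6.60, limma adjusted p = 0.00160). KX2391, a Src and tubulin inhibitor, differed by −45.8 (limma adjusted p = 0.0221) and left SKBR3 at 13.8% and 17% at 100 nM, with the others at 31.4% and 33.5%, but against single lines it was called for BT-20 alone. Paclitaxel, a microtubule stabiliser, differed by −42.9 and SB743921, an inhibitor of the spindle motor KSP, by −36.9. Mebendazole, a tubulin binder, differed by −35.1 and GSK461364, a PLK1 inhibitor, by −33.1 (limma adjusted p from 0.00355 to 0.00746 for these 4). GSK461364 was the only compound called at the lowest dose, 10 nM, where SKBR3 was at 20.4% and 13.5% and the others at 57.5% and 52.5%. Its AUCs in HCC-38 and MDA-MB-231, 55.8 and 53.3, did not differ detectably from SKBR3 (limma adjusted p = 0.827 and 0.931).

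Alisertib, an inhibitor of the mitotic kinase Aurora A, went the other way. SKBR3 gave 246.7 and 270.1 and the others 193.1 and 203.7, a difference of 60.0 (standard error 8.72, limma adjusted p = 0.00137) that was the highest of all compounds tested. SKBR3 kept 79.6% and 72.2% of its cells at 10000 nM, against 56.8% and 47.5%. BT-20 came next at 236.02, and against BT-20 alone the difference of 22.4 did not pass without the block (limma adjusted p = 0.182, blocked 0.0398). KW2449, a multikinase inhibitor that includes Aurora kinases, differed by 19.4 (limma adjusted p = 0.136, blocked 0.0271).

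**Figure D3:**
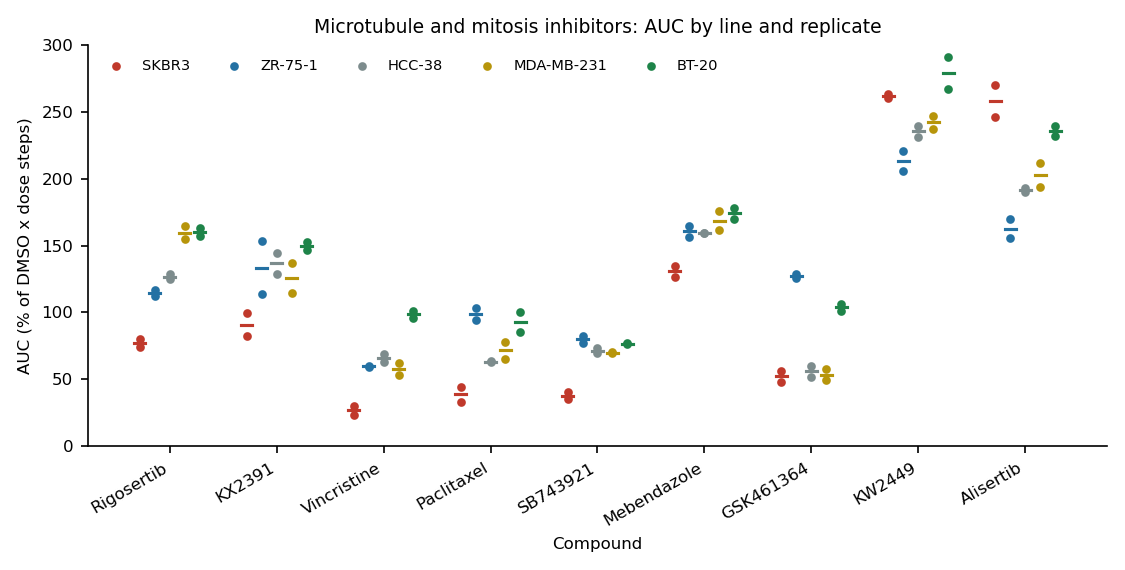
AUC (y axis, percent of DMSO times dose steps) of 9 microtubule and mitosis inhibitors (x axis) in 5 lines, with 2 points per line for the replicates and a bar for their mean. SKBR3 has the lowest mean for 7 compounds and the highest for Alisertib.

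RITA, first described as a compound that frees p53 from MDM2, had the most negative difference, but SKBR3 was not alone in it. SKBR3 gave 61.2 and 83.2 and the others 201.9 and 208.03, a difference of −132.8 (standard error 9.11, limma adjusted p = 2.43e-05). The other lines were spread widely, with means of 50.9 in ZR-75-1, 160.1 in BT-20, 274.6 in MDA-MB-231 and 334.3 in HCC-38. Against ZR-75-1 alone the difference was 21.3 and did not pass (limma adjusted p = 0.304).

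Methotrexate, an inhibitor of dihydrofolate reductase, gave 127.8 and 119.5 in SKBR3 and 190.8 and 197.1 in the others (difference −70.3, standard error 7.33, limma adjusted p = 1.71e-04), and SKBR3 was lower than each other line. The others were far apart here as well, with 162.6 in HCC-38 and 246.7 in MDA-MB-231. Of the 8 antimetabolites 3 were lower (14% of all compounds were), with a median of −21.9, and the other 2 called were Gemcitabine (−24.9) and Clofarabine (−23.2), whose SKBR3 AUC was not the lowest of the 5 lines. APY29, a kinase-binding ligand of IRE1, gave 111.9 and 123.01 in SKBR3 and 164.4 and 183.8 in the others (difference −56.6, standard error 9.97, limma adjusted p = 0.00396). MDA-MB-231 was close to SKBR3 with APY29, at 127.9, and BT-20 far above, at 245.6.

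Proteasome inhibitors were lower in SKBR3 for 3 of 4 in both fits, against 14% of all compounds without the block and 31.4% with it, and had a median of −32.8, but none of the 3 differed detectably from HCC-38 (limma adjusted p from 0.694 to 0.916). Carfilzomib gave 92.8 and 87 in SKBR3 and 125.5 and 130.2 in the others (difference −38, limma adjusted p = 0.00746), and HCC-38 stood at 83.6. The gap lay at the second dose, 10 nM, with SKBR3 at 42.6% and 24.5% and the others at 69.3% and 58.8%. MLN2238 (ixazomib) differed by −36.7 and Bortezomib by −28.9. Of the 2 HDAC inhibitors tested, TubastatinA, which is selective for HDAC6, was called lower (−35.6, limma adjusted p = 0.0327). Entinostat, a class I inhibitor, was called lower by AUC only with the block (−35.9, limma adjusted p = 0.155, blocked 0.00766). At the third and the highest dose alone Entinostat was called lower without the block as well. The remaining compounds called lower were Tacrolimus, a calcineurin inhibitor (−36.4), and Trifluoperazine, a dopamine receptor antagonist (−28.9).

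Besides Alisertib, 3 compounds were called higher in SKBR3. Dasatinib, a SRC and ABL inhibitor, gave 260.7 and 255.97 in SKBR3 and 201.5 and 208.6 in the others (difference 53.3, standard error 7.04, limma adjusted p = 7.30e-04). BT-20 did not differ detectably from SKBR3, with 254.8 (limma adjusted p = 0.804), and MDA-MB-231 was lowest at 153.8. At 1000 nM SKBR3 was at 103.1% and 98.6% and the others at 68.8% and 69%, whereas at 10000 nM the lines met, at 43.8% and 42.2% and at 46.8% and 38.9%. Trametinib, a MEK inhibitor, gave 261.5 and 256.4 in SKBR3 and 227.1 and 225.1 in the others (difference 32.8, standard error 7.67, limma adjusted p = 0.0167), with BT-20 and HCC-38 at 253.5 and 251.2, not detectably different from SKBR3 (limma adjusted p = 0.733 and 0.673).

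YM155, which enters cells through the transporter SLC35F2, gave 120.9 and 123.4 in SKBR3 and 85 and 89.6 in the others (difference 34.9, standard error 6.44, limma adjusted p = 0.00518). The gap was called at 1 of the 4 doses, 10 nM, with SKBR3 at 64.6% and 63.3% and the others at 35.4% and 36.8%. The sgSLC35F2 cells are among the 10 populations averaged, and theirs was the only difference below 0, at −46. Leaving these cells out, which was decided with the values in view, gave a difference of 43.9.

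Further compounds over 25 that were not called without the block were PD318088 (30.1), Selumetinib (27.7) and Palbociclib (26.7), the first 2 of them MEK inhibitors like Trametinib, and the blocked limma adjusted p was 0.00766, 0.00584 and 0.00510. PD318088 and Selumetinib were picked out after their values were seen. By AUC, of the 6 RAF and MEK inhibitors 1 was called higher without the block and 3 with it. With the block 2 were called lower, and the median was 7.89. Of all compounds 2.33% were called higher without the block and 5.23% with it. Palbociclib, a CDK4 and CDK6 inhibitor, was the only compound for which SKBR3 reached 50% of DMSO at a higher dose than every other line.

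Classes without a call by AUC in either fit were the BCL2 family inhibitors (3 tested, median −1.54), BET inhibitors (2, −2.21), FGFR inhibitors (2, 11.7), gamma-secretase inhibitors (3, −11), hormone receptor and steroid synthesis blockers (6, −0.260), IKK inhibitors (1, −6.62), statins (3, 11.1) and the VEGFR and multikinase inhibitors (10, 0.447). Their members farthest from 0 were ABT737 (13.8), IBET151 (−3.72), AZD4547 (19.3), RO4929097 (−11.3), Letrozole (−18.1; −1.85 and −34.4 in the replicates), TPCA1 (−6.62), Fluvastatin (12.8) and Brivanib (−13). At the highest dose alone, Lovastatin, Simvastatin, Ki8751 and Tivozanib were called higher without the block, and FourHydroxytamoxifen and Cediranib lower. Of all compounds 6.98% were called higher at that dose and 20.3% lower. Other classes had calls by AUC only with the block, and their counts stand beside a share of 31.4% lower over all compounds. Among these, 2 of 5 DNA damage response inhibitors were lower with the block (median −17.2), 2 of 6 topoisomerase inhibitors (−11.7), 1 of 7 DNA alkylators or crosslinkers (−10.3), 1 of 4 MET and ALK inhibitors (−8.82), 1 of 4 NRF2-activating electrophiles (−11) and the 1 JAK inhibitor tested, TG101348 (−28.3; −14.9 and −41.7 in the replicates). Farthest from 0 in them were KU60019 (−35.4), Etoposide (−31.9), Temozolomide (−27.3), Tivantinib (−27) and BardoxoloneMethyl (−23.4). Higher with the block, as were 5.23% of all compounds, were 1 of 3 CDK inhibitors, Palbociclib, and 1 of 3 IGF1R and insulin receptor inhibitors, BMS754807 (24.8). The SRC, ABL and FAK inhibitors (5 tested, median −5.55) held Dasatinib and, with the block, 2 that were lower. The remaining 51 compounds without a class had a median of −8.03, with 4 lower and 1 higher, against 14% and 2.33% of all compounds.

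**Figure D4:**
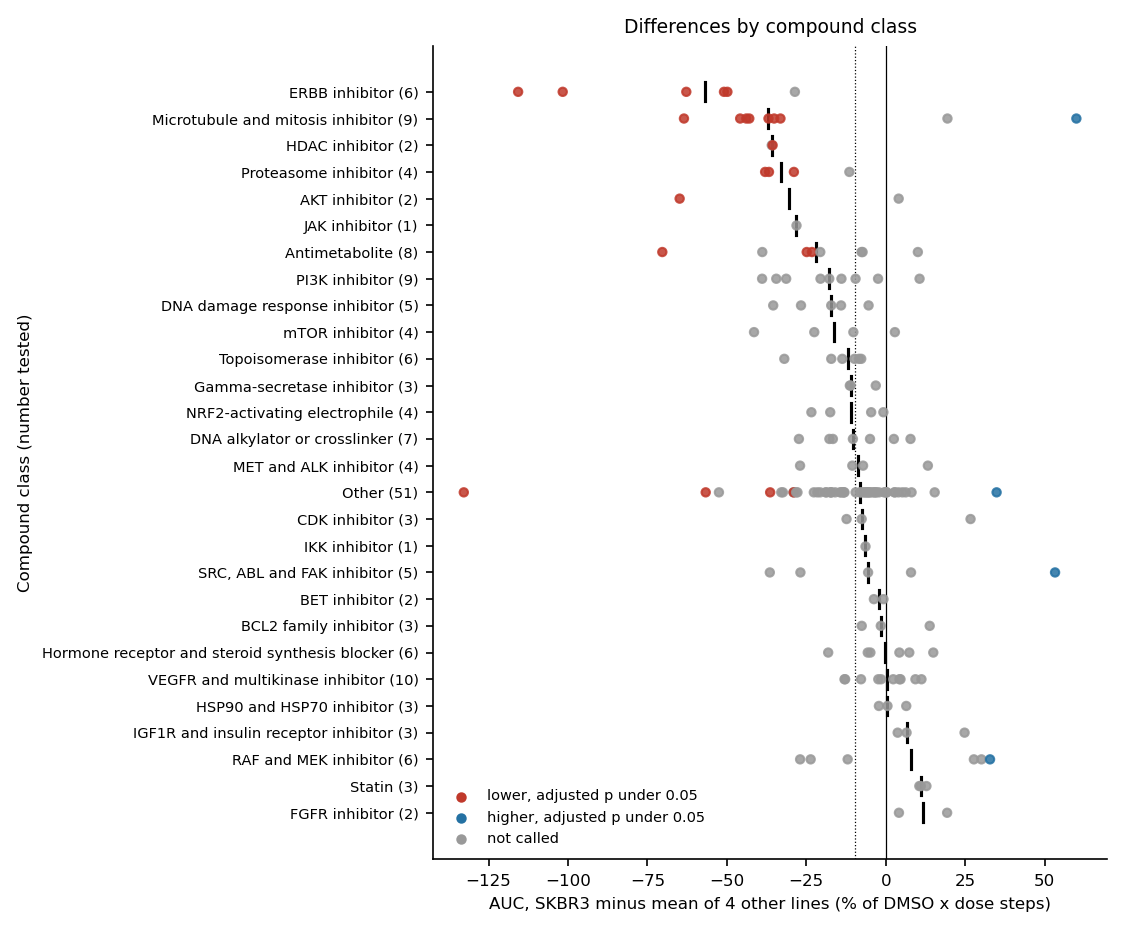
AUC of SKBR3 minus the mean of the 4 other lines (x axis, percent of DMSO times dose steps) for each compound, by class (y axis, number tested in brackets), with a black bar at the class median and a dotted line at the median of all compounds. ERBB inhibitors have the lowest median, −56.8, and their 6 members all lie left of the dotted line.

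Other related compounds at matched doses differed in 1 of 5 pairs, by the same pooled test. Members of that pair were on different plates, as were those of the Etoposide and the Ganetespib pair below, so plate and compound cannot be told apart in these 3 pairs. KU60019 had a lower SKBR3 difference than the earlier ATM inhibitor of its series, KU55933, by 30.02 (95% interval 10.2 to 49.8, adjusted p = 0.00626). KU60019 gave 232.98 and 229.98 in SKBR3 and 254.9 and 278.9 in the others, and KU55933 gave 282.2 and 252.1 in SKBR3 and 275.4 and 269.7 in the others. Lovastatin and Simvastatin, which differ by a methyl group in the side chain, were not told apart (−0.476, 95% interval −20.3 to 19.3, adjusted p = 0.962). Nor were Etoposide and Teniposide, whose sugar carries a different group (−14.8, 95% interval −34.6 to 5.01, adjusted p = 0.203), ABT737 and Navitoclax (15.4, 95% interval −4.39 to 35.2, adjusted p = 0.195) or Ganetespib and NVPAUY922 (2.70, 95% interval −17.1 to 22.5, adjusted p = 0.876).

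By dose, the number of compounds lower in SKBR3 was 1 at the lowest dose (0.581%; 3 with the block, 1.74%), 12 at the second (6.98%), 24 at the third (14%) and 35 at the highest (20.3%). With the block this number was 15 at the second dose, 35 at the third and 49 at the highest. By limma 0 compounds were higher at the lowest dose in either fit (0%; 1 at an unadjusted p under 0.05), then 1 at the second dose (0.581%; 3 with the block, 1.74%), 3 at the third (1.74%; 8 with the block, 4.65%) and 12 at the highest (6.98%; 22 with the block, 12.8%). The median difference over all compounds was −1.92, −3.47, −4.50 and −3.35 points from the lowest to the highest dose. Each plate held 1 dose and 1 replicate, so dose and plate cannot be told apart.

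The difference moved down from the lowest to the highest dose for 4 compounds (2.33%; 12 with the block, 6.98%) and up for 3 (1.74%; 10 with the block, 5.81%). Besides Erlotinib and Gefitinib, those that moved down were FourHydroxytamoxifen, an estrogen receptor ligand (−40.7 points, limma adjusted p = 0.00450), and TubastatinA (−36.5, limma adjusted p = 0.0358). With FourHydroxytamoxifen SKBR3 was at 115.3% and 97.3% at 10 nM and the others at 95.5% and 86.5%, a difference that did not pass by itself (limma adjusted p = 0.972). At 10000 nM SKBR3 was below the mean of the others, at 47% and 35.3% against 71.9% and 61.2% (limma adjusted p = 0.0157). By AUC, SKBR3 was called higher than ZR-75-1 alone with this compound under the block. The study describes ZR-75-1 as the line preferentially sensitive to it. GSKJ4, a histone demethylase inhibitor, moved up by 45.5 points (limma adjusted p = 0.00897), and at 10000 nM left SKBR3 at 83.9% and 89.5% with the others at 44.9% and 46.1%. KW2449 moved up by 34.9 and GSK461364 by 41.1. The AUC differences of FourHydroxytamoxifen (7.42) and GSKJ4 (8.14) were not called.

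**Figure D5:**
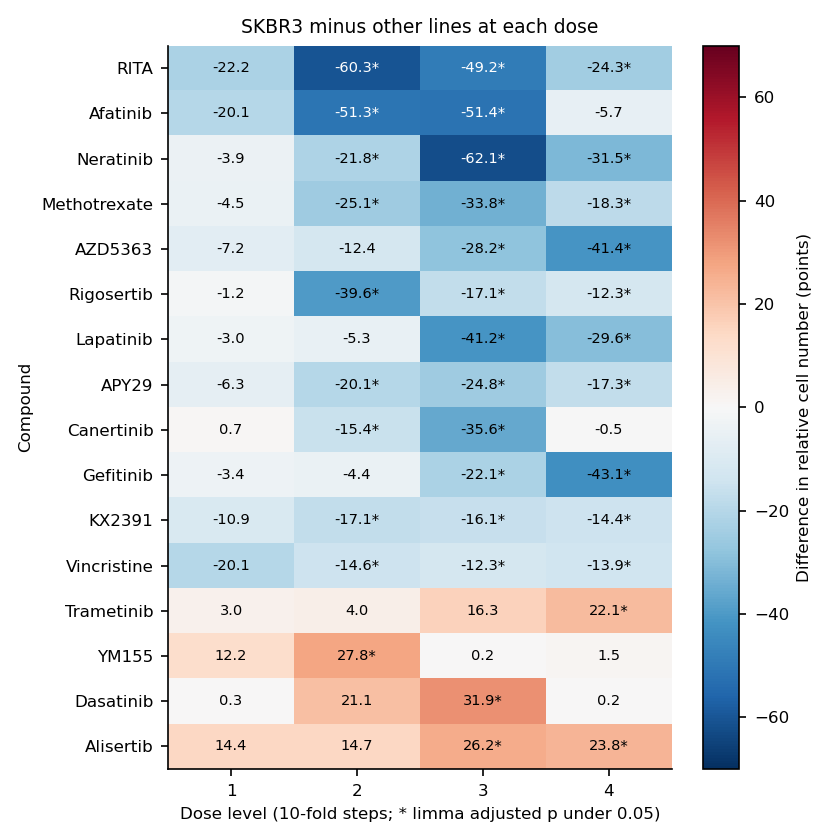
SKBR3 minus the mean of the 4 other lines (colour and number, percentage points of relative cell number) at 4 dose levels (x axis) for the 12 most negative and the 4 positive compounds called by AUC (y axis), with an asterisk where the limma adjusted p was under 0.05. Afatinib, Canertinib and RITA have their widest gap at a middle dose, Gefitinib and AZD5363 at the highest.

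As a measure of potency, the first dose was taken at which both replicates were below 50% of DMSO. SKBR3 reached it for 74 compounds, ZR-75-1 for 80, MDA-MB-231 for 76, HCC-38 for 58 and BT-20 for 51. SKBR3 reached it at a lower dose than every other line for 10 compounds. Among them, Afatinib did so at 100 nM in SKBR3 and at 10000 nM in each other line, Canertinib at 1000 nM against 10000 nM, and Methotrexate at 100 nM against 1000 or 10000 nM. For 6 of the 10 no other line reached it at all, namely AZD5363, Erlotinib, Gefitinib, Neratinib, Nilotinib and TubastatinA. GDC0941 was the last of the 10.

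Set against each line in turn, SKBR3 was lower than ZR-75-1 for 22 compounds (12.8%; 33 with the block, 19.2%) and higher for 10 (5.81%; 17 with the block, 9.88%). It was lower than HCC-38 for 28 (16.3%; 53 with the block, 30.8%) and higher for 5 (2.91%; 12 with the block, 6.98%). Against MDA-MB-231 it was lower for 24 (14%; 38 with the block, 22.1%) and higher for 10 (5.81%; 20 with the block, 11.6%). Against BT-20 it was lower for 34 (19.8%; 64 with the block, 37.2%) and higher for 0 by limma (0%; 1 at an unadjusted p under 0.05), and with the block for Everolimus and Alisertib (1.16%). Lower than each other line were 9 compounds (5.23%), namely Afatinib, Neratinib, Lapatinib, Canertinib, AZD5363, Methotrexate, Rigosertib, SB743921 and Vincristine. By limma 0 compounds were higher than each other line without the block (0%; also 0 at an unadjusted p under 0.05), and 1, Alisertib, with it (0.581%).

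The sgRNA populations of SKBR3 gave the same direction for nearly all calls. Of the 24 compounds called lower, 23 had a difference below 0 with each of the 10 sgRNAs, and Tacrolimus had 7 of 10. The calls rest on the mean of these 10 sgRNAs, so this agreement is not separate support for them. The sgRNAs left out of the comparison, sgHSF1 and sgKEAP1, could be set against BT-20, HCC-38 and MDA-MB-231. Over the 24 compounds the sgHSF1 cells differed by a median of −51.6 and the sgKEAP1 cells by −52.3, below 0 for all 24 each, and the 10 sgRNAs by −44.5 against the same 3 lines. Over all compounds tested these medians were −18.6, −29.9 and −12.8. Most of all compounds tested also lay below 0 with sgHSF1 and with sgKEAP1. The sign alone therefore says little about the 24. All sgRNAs share their wells, so they are not replicates of each other.

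The sgNT cells, with non-targeting guides, are among the 10 populations averaged, so their direction is not separate support for the calls. With sgNT alone, the difference was below 0 for all 24 compounds and above 0 for all 4. Only 5 of the 24 were then called lower, namely Afatinib, Canertinib, Neratinib, RITA and Rigosertib. The sgNT cells gave 4.03% ± 0.848 of the SKBR3 reads in DMSO wells (SD, n = 96), the lowest share of the 12 populations, and the median standard error of the difference rose from 9.21 to 21.5.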

How the data were processed

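QMAP-Seq read counts per well, cell line and sgRNA, and relative cell numbers computed from them, were deposited. The authors demultiplexed the reads (bcl2fastq, per the submitters' notes, version not given in the sources used here) and counted those whose line and sgRNA barcodes matched with up to 1 mismatch per barcode, and the deposited counts were not normalized. The deposited ratio values were made by the authors from cell numbers read off a standard curve of 5 amounts of spiked-in 293T cells (a human kidney line) in each well, divided by the median DMSO well. Recomputing 83520 of these ratios from the counts gave values within 5.32e-05 on the log2 scale. Ratios are shown as percentages of DMSO. The mean over 10 sgRNAs was summed over doses into an AUC.

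SKBR3 minus the mean of the 4 other lines was tested with limma 3.58.1 in R 4.3.3 (lmFit, contrasts.fit, eBayes, line as group, two-sided, Benjamini-Hochberg over 172 compounds), pairs of compounds by limma with 1 spread pooled over all compounds, and other steps used Python 3.11.15 with pandas 2.3.3 and numpy 2.4.6. The fit without the block was also run on simulated data with 40 shifted compounds. It recovered 55% of shifts of 30 AUC units and 95% of shifts of 60, and 3.23% of its calls were false. The simulated noise was independent between lines, so this run does not cover the effect of shared wells. All lines had the same simulated mean for compounds that were not shifted. The run therefore does not cover a general shift such as the median difference of −9.66 either. Each group held 2 replicates, described in the study as independent, and p-values measure the spread between these wells. The labels name a plate for DMSO wells only. Plates of compound wells were inferred from blocks of consecutive sample numbers, in which every DMSO well fell on its named plate. By these blocks each plate held 90 compounds at 1 dose in 1 replicate and 6 DMSO wells. Same-numbered replicates share wells, and their deviations correlated between SKBR3 and the other lines at 0.463 to 0.724 over 172 compounds, so a fit with the replicate as a block was also made. No interval for counting error is given, since PCR reads carried no molecular identifiers and the spread between wells was used instead.

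Compounds named with values were the 12 most negative and up to 12 most positive among those called with the same sign in both replicates, all ERBB, PI3K, AKT, mTOR and chaperone inhibitors, the related pairs, and of each other class the member farthest from 0. Other compounds were named after their values were seen. The comparison, the classes and these lists were chosen with earlier results of these data known. Alternatives were the replicate block, per-replicate differences, sgNT alone, all 12 sgRNAs, the median over sgRNAs, log2 scale with a pseudocount of 1, DMSO wells of the same plate, log2 share of reads, centring, active compounds only, robust moderation, and leaving out each line or replicate.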

Additional observations from a re-analysis of the deposited data

Results flagged for a closer look

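Differences between SKBR3 and the mean of the other lines that passed limma's adjusted test are collected here, in AUC units. The most negative were RITA (−132.8), Afatinib (−115.7), Neratinib (−101.7), Methotrexate (−70.3), AZD5363 (−64.85), Rigosertib (−63.5), Lapatinib (−62.8), APY29 (−56.6), Canertinib (−50.9), Gefitinib (−49.8), KX2391 (−45.8) and Vincristine (−43.9). They were followed by Paclitaxel (−42.9), Carfilzomib (−38.0), SB743921 (−36.9), MLN2238 (−36.7), Tacrolimus (−36.4), TubastatinA (−35.6), Mebendazole (−35.1), GSK461364 (−33.1), Trifluoperazine (−28.9), Bortezomib (−28.9), Gemcitabine (−24.9) and Clofarabine (−23.2). The positive ones were Trametinib (32.8), YM155 (34.9), Dasatinib (53.3) and Alisertib (60.0).

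The difference itself changed between the lowest and the highest dose, by the same test, for Erlotinib (−50.1 points), FourHydroxytamoxifen (−40.7), Gefitinib (−39.7), TubastatinA (−36.5), KW2449 (34.9), GSK461364 (41.1) and GSKJ4 (45.5).

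Ruxolitinib and STF083010 were outside the comparison, and their differences were not tested. The study excluded both because some cells had very high AUCs with them, and took this for a probable technical fault at the well position they share, so their values need not be responses to the compounds. Ruxolitinib, a JAK inhibitor, gave −36.6 and −49.8 in the replicates (mean −43.2), and STF083010, an IRE1 inhibitor, gave −17.0 and −23.6 (mean −20.3). DMSO wells summed in the same way gave 0.335 and −1.95 on the plates of the compound sets, which lie near 0 because each line was scaled to these wells.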

How the results depend on the processing

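Under the other settings the 24 lower and 4 higher compounds mostly held. Also called were 23 and 4 of them with all 12 sgRNAs, 22 and 4 with the median over sgRNAs, 24 and 4 on the log2 scale, 20 and 4 with DMSO wells of the same plate, 24 and 4 from the share of reads, and 23 and 4 with robust moderation. Across the 57 compounds named by the rules above, under alternatives that kept both replicates, 13 values no longer passed, 43 changed sign, and the others that were tested kept their direction and their call or passed newly. Of the 24 lower compounds, Paclitaxel, SB743921, MLN2238, Tacrolimus, TubastatinA, Mebendazole, GSK461364, Trifluoperazine, Bortezomib, Gemcitabine and Clofarabine are outside the 57. Losses of their calls are not in these counts. The precision is limited by 2 replicates per line.

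With the replicate block the counts were 54 lower and 9 higher by AUC, 3 lower at the lowest dose, 3, 8 and 22 higher at the second, next and highest doses, 12 moving down and 10 moving up with dose, and 1 higher than each other line. With per-replicate differences they were 66 lower and 10 higher, on the log2 scale 45 and 7, as log2 share of reads 75 and 19, and among compounds with an AUC under 250 in at least 1 line 37 and 8. Without MDA-MB-231 in the comparison 37 were lower, and without BT-20 9 were higher. With sgNT alone 5 were lower and 1 higher by AUC, 0, 2, 3 and 4 lower and 0, 0, 0 and 1 higher from the lowest to the highest dose, 0 moved down, 0 moved up, 0 were lower than each other line, 1 pair differed, and 14 differences exceeded 25. Centred on the median compound 8 were higher and 29 differences lay under −25. With 1 replicate left out the number under −25 was 41 to 50 and the number over 25 was 5 to 9. The cause of these shifts was not tested. Among the 57, APY29 no longer passed without BT-20 (−32.8), and Trametinib did not without MDA-MB-231 (20.1). Over all compounds 19 were lower without BT-20, against 24 with it, so further calls were lost there. Also lost among the 57 with sgNT alone were Methotrexate, AZD5363, Lapatinib, APY29, Gefitinib, KX2391, Vincristine, Carfilzomib, Dasatinib, YM155 and Trametinib, all with their direction kept.

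Among the 57, changes of sign concerned compounds that were not called in the main comparison. With 1 replicate left out, which leaves no test, 7 named compounds changed sign, none of them called in either fit. Without replicate 1 the differences were −7.70 for Ganetespib and −0.922 for Everolimus, and without replicate 2 they were −0.426 for Lovastatin, 6.79 for KU55933, 2.14 for Navitoclax, 1.61 for IBET151 and 0.0345 for Brivanib. A further 18 kept their sign and moved by over 1.5 times, of which 0 were called in the main test (limma) and 3 with the block alone, namely KU60019 (−21.9 without replicate 2), TG101348 (−14.9) and Teniposide (−10.2). With sgNT alone the differences were −23.5 for Ganetespib, 1.55 for NVPAUY922, 39.9 for GSK1059615, 0.381 for PI103, 6.63 for ETP46464, −1.96 for Everolimus, 12.0 for KU55933, −7.18 for ABT737, −19.8 for Simvastatin, 13.1 for RO4929097, 21.8 for Letrozole and −11.2 for Fluvastatin. With the median over sgRNAs they were −1.10 for Ganetespib and −0.867 for VER155008, and with all 12 sgRNAs −0.377 for AT7867. On the log2 scale they were 0.0811 for NVPAUY922, −0.0340 for AT7867 and 0.00132 for Navitoclax, and as log2 share of reads 0.0634 for NVPAUY922, −0.0210 for VER155008, −0.0335 for AT7867 and 0.00468 for Navitoclax. After centring they were 5.33 for NVPAUY922, 5.06 for GSK1059615, 2.08 for KU55933, 5.92 for Navitoclax, 3.75 for IBET151 and 0.851 for TPCA1. Without ZR-75-1 they were −2.80 for Ganetespib, 1.84 for GSK1059615 and 9.34 for Navitoclax. Without HCC-38 they were −0.0710 for Ganetespib, −5.49 for AT7867 and −1.03 for Everolimus. Without MDA-MB-231 they were −4.21 for Ganetespib, −0.312 for VER155008, 0.984 for GSK1059615, −4.01 for AT7867, −0.827 for Lovastatin and −6.16 for Fluvastatin. Without BT-20 they were 6.13 for NVPAUY922, −5.07 for Everolimus and 3.31 for IBET151.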
